A study of Oryza sativa with 12 samples.

Results

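The salt response of OLESA, a salt-sensitive, long-grain *japonica* rice cultivar, was examined in leaves by comparing 3 libraries of salt-treated plants with 3 libraries of untreated plants, that is 6 of the 12 libraries sequenced. These were the libraries that the sample labels give as line PL12, taken as OLESA because it is the only parent in the study's RNA-Seq design. The other 6 libraries come from IL22, an introgression line with segments of the salt-tolerant *indica* line FL478 in the OLESA background, and they serve here as a reference for the OLESA values. All plants were germinated for 7 days and then kept for 7 days in nutrient solution, at 28°C by day and 26°C by night with 14 h of light. OLESA salt plants then received 80 mM NaCl for 24 h, whereas OLESA control plants received none. The IL22 libraries were likewise 3 from untreated control plants and 3 from plants that received 80 mM NaCl for 24 h. Leaves of 4 plants were pooled in each replicate, so variation between single plants is not seen. Since whole leaves were sampled, fewer cells of a type and less RNA per cell cannot be told apart.

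Salt in the root medium lowers the availability of water to the shoot and later allows sodium to build up in the leaves. Rice seedlings are known to respond with abscisic acid signaling, protective proteins and osmolytes, with ion transporters that keep sodium out of the leaf blade, and with lower photosynthesis and growth. The deposited counts carry rice locus IDs, and the gene reference at hand, which is of another build, shared 1 of the 36844 IDs with them. Therefore, no locus could be given a gene name, a function or a sequence, and the leaf could not be checked against its marker genes. The response is described here by its direction, its size, the abundance of the genes and their order by locus ID. In these IDs, the number after "Os" is the chromosome.

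The OLESA libraries held between 12163349 and 23578477 counts, and between 17986 and 18795 features reached 1 CPM, a unit of counts relative to library size, in each. Expression levels are given below as CPM after TMM scaling, which brings libraries of different depth and composition to a common scale. The log2 CPM of control libraries correlated with each other at r = 0.960 to 0.977 across genes and that of salt libraries at r = 0.950 to 0.954, whereas pairs of 1 control and 1 salt library correlated at r = 0.899 to 0.930. Thus, each OLESA library was closer to every library of its own condition than to any library of the other. Control replicate 3 was the deepest library and had 39.3% of its counts in its 100 most abundant features, compared with 33.1% and 34% in control replicates 1 and 2 and 25.5 to 30.3% in the salt libraries. Whether this bears on the response was not tested, and counts without each library are given below.

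Salt treatment changed the expression of 4487 of 20760 tested features in OLESA leaves (21.6%). Of them, 2433 were up-regulated (11.7%) and 2054 were down-regulated (9.89%). To count as a DEG (differentially expressed gene), a feature needed an adjusted p of 0.05 or less in edgeR's quasi-likelihood test, fitted over all 12 libraries, and a log2 fold change (FC) above 0.5 or below -0.5. In 97.0% of the DEGs the 3 salt and the 3 control libraries did not overlap, compared with 39.8% of all tested features. The median log2 FC over all tested features was 0.01, or -0.06 with upper-quartile factors in place of TMM. Leaving out 1 OLESA library lowered the number of DEGs to 1936 (control replicate 2), 2303 (control replicate 3), 2978 (salt replicate 1) or 2711 (salt replicate 2). It was 4266 without control replicate 1 and 3718 without salt replicate 3. The majority of up-regulated DEGs turned to 45.9% with upper-quartile factors, where 2082 were up-regulated and 2457 down-regulated.

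**Figure D1:**
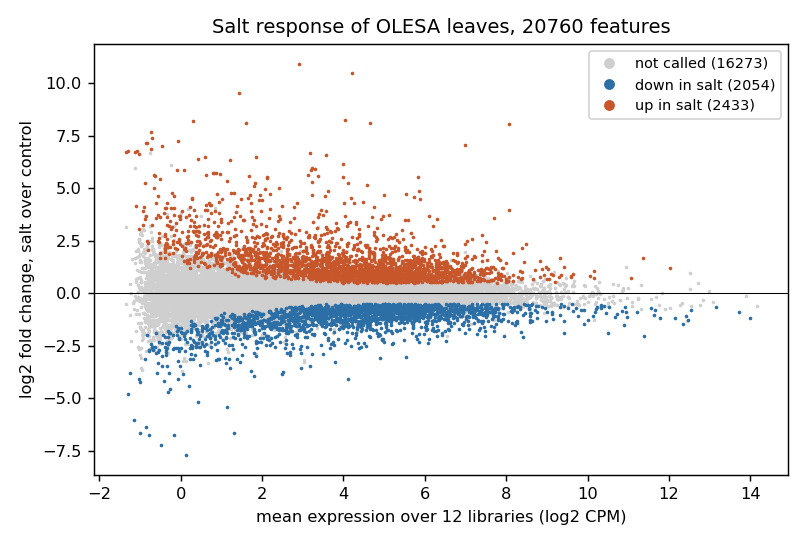
Log2 fold change of salt over control in OLESA (vertical axis) against mean expression over the 12 libraries in log2 CPM (horizontal axis), with 1 point for each of 20760 features. The 2433 up-regulated features (orange) extend to a log2 fold change of 10.95, and the 2054 down-regulated features (blue) extend to -7.72 at low expression.

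Up-regulated genes reached larger changes than down-regulated genes. The median log2 FC was 1.19 for up-regulated and -1.04 for down-regulated DEGs, and the strongest 10% of each lay above 2.82 and below -2.04, respectively. A log2 FC beyond 1 was found in 1518 up-regulated DEGs (7.31% of tested features) and 1078 down-regulated DEGs (5.19%), a log2 FC beyond 2 in 496 and 222, and a log2 FC beyond 3 in 210 and 50. The difference was also present among the 12239 features whose mean log2 CPM reached 3, where 182 up-regulated but 51 down-regulated DEGs had a log2 FC beyond 2. Of these, 140 up-regulated and 42 down-regulated DEGs were called in every fit that left out 1 OLESA library. Low counts favour extreme fold changes, and the median standard error of log2 FC was 0.60 in the quintile of features with the lowest expression and 0.19 in the quintile with the highest.

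A small group of genes was found in only 1 of the conditions. Of 30 tested features without counts in all OLESA control libraries, 15 were up-regulated DEGs, against 11.7% of all tested features. These were at least 12.1-fold to 242-fold higher in salt (median of the bounds 16.8), when 3 counts over the control group are taken as the floor. Their counts in single salt libraries ranged from 0 to 650. Of 22 tested features without counts in all OLESA salt libraries, 7 were down-regulated DEGs, against 9.89% of all tested features. These 7 were at least 8.57-fold to 27.9-fold lower in salt. A feature at 0 in 1 condition can only be higher in the other, and it passed the count filter through other libraries. The direction of these changes thus follows from the choice. The up-regulated genes of this kind were found on 9 chromosomes and the down-regulated ones on 6. Furthermore, 173 up-regulated DEGs had fewer than 10 counts in every control library, and 91 down-regulated DEGs had fewer than 10 in every salt library. How many of all tested features had so few counts is not given here, so these numbers carry no share.

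Down-regulation weighed most on the most abundant transcripts. Features were ranked by their mean CPM over the 6 OLESA libraries, which counts fragments and is not per length. Of the 100 highest, from about 1040 CPM upward, 35 were down-regulated and 5 were up-regulated, against 9.89% and 11.7% of all tested features. The 35 had a median log2 FC of -0.95 and ranged from -2.03 to -0.58, and the 5 ranged from 0.71 to 1.67. Irrespective of the test, 75 of the 100 had a negative log2 FC. Toward lower ranks the balance shifted, with 50 down-regulated and 17 up-regulated among the highest 200 and 107 and 51 among the highest 500. In the quintile of features with the highest expression, 15.1% were down-regulated and 14.9% up-regulated, and in each of the other quintiles up-regulated genes were the more frequent. In the lowest quintile, 5.80% were up-regulated and 5.08% down-regulated. Of the 35 down-regulated among the highest 100, 20 were called in every fit without 1 OLESA library, and the number of down-regulated genes among the highest 100 was 23 without control replicate 2 and also 23 without control replicate 3, which need not be the same genes.

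**Figure D2:**
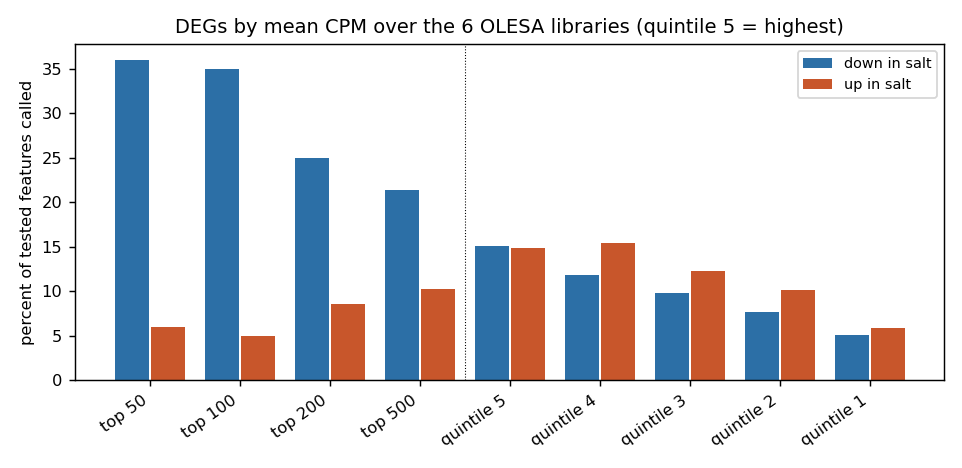
Percent of tested features that were down-regulated (blue) or up-regulated (orange) in OLESA salt, for the 50, 100, 200 and 500 features with the highest mean CPM over the 6 OLESA libraries and for the quintiles of all tested features by the same mean. Down-regulated genes make up 35% of the highest 100 and 5.08% of the lowest quintile.

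This was also visible in the raw composition of the libraries. The 2054 down-regulated DEGs held 25.5%, 28.0% and 29.7% of all counts in OLESA control replicates 1, 2 and 3, and 15.7%, 15.3% and 15.2% in salt replicates 1, 2 and 3. The 2433 up-regulated DEGs held 7.27%, 6.37% and 5.81% of the counts in the control libraries and 14.0%, 15.2% and 16.8% in the salt libraries. Thus, the groups did not overlap for either set, and both held similar shares in salt-treated leaves. As the DEGs were called in these libraries, the shares describe the response and are no test of it.

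**Figure D3:**
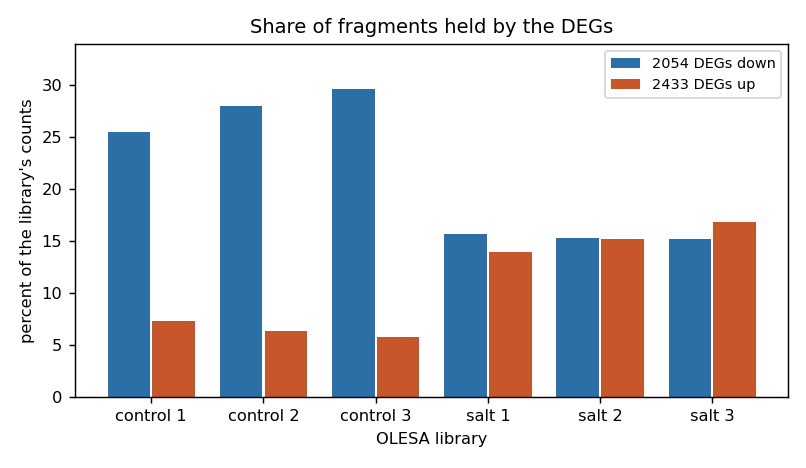
Percent of each OLESA library's counts that fall on the 2054 down-regulated DEGs (blue) and on the 2433 up-regulated DEGs (orange). The down-regulated DEGs hold 25.5 to 29.7% in the 3 control libraries and 15.2 to 15.7% in the 3 salt libraries.

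The fall was concentrated in few genes, and the rise was spread over many. When CPM differences between the group means were summed, 24 of the down-regulated DEGs accounted for 50% of the total fall, whereas 196 of the up-regulated DEGs were needed for the same part of the total rise. The 10 genes with the largest fall made up 36.8% of the total, and the 10 with the largest rise made up 14.9%. The 24 genes had control means from 1530 to 23900 CPM (median 4240) and salt means from 561 to 10900 CPM (median 2010). Their log2 FC ranged from -2.03 to -0.66, with adjusted p from 0.000552 to 0.0427 in edgeR's quasi-likelihood test, and the salt libraries lay below the control libraries in all 24, compared with 19.7% of all tested features. Such a separation was the rule among the DEGs from which the 24 were taken, as 97.0% of all DEGs had it. They were found on 9 chromosomes. Together they held 12.5 to 14.5% of the counts in control libraries and 6.72 to 7.46% in salt libraries. The IL22 libraries entered the choice of these genes through the filter, the scaling and the spread, but not through the OLESA contrast. In IL22 the same 24 genes held 12%, 9.05% and 9.13% in control replicates 1, 2 and 3 and 8.28 to 8.90% in salt, so IL22 control replicates 2 and 3 were close to the IL22 salt libraries. Of the 24 genes, 17 had a negative log2 FC in IL22 (median over the 24 of -0.29), and 3 were down-regulated DEGs there, against 2.25% of all tested features, whose median log2 FC in IL22 was -0.03. In fits without 1 library, the fall was summed over the down-regulated DEGs of that fit. Without OLESA control replicate 2 these were 963 DEGs, and 12 genes accounted for 50% of their fall. This number was 11 of 1004 without OLESA control replicate 3. It was 14 without either salt replicate 1 or salt replicate 2, where 1290 and 1192 were called. Such numbers are not given for the rise.

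In total, 4 loci were examined in every library, as the 2 with the highest and the 2 with the lowest log2 FC among 677 well-counted DEGs that were called in every fit without 1 OLESA library and with DESeq2. Os06g0662550, on Chromosome 6, was measured at 4.22, 3.78 and 1.76 CPM in OLESA control replicates 1, 2 and 3 and at 132.7, 119.7 and 203.3 CPM in salt replicates 1, 2 and 3. All salt libraries were far above all control libraries. The mean rose from 3.25 ± 1.31 to 151.9 ± 45.0 CPM (SD, n = 3), a log2 FC of 5.56 (SE 0.50, adjusted p = 0.000138 in edgeR's quasi-likelihood test). In IL22 the same locus was at 4.78, 19.1 and 16.4 CPM in control and at 53.5, 72.1 and 48.4 CPM in salt. Hence IL22 control replicate 1 was near the OLESA controls, its other controls were higher, and all IL22 salt libraries were below all OLESA salt libraries.

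Os11g0303800, on Chromosome 11, was at 5.11, 7.92 and 2.81 CPM in OLESA control and at 111.0, 88.1 and 254.2 CPM in OLESA salt. The salt libraries were again all higher, and salt replicate 3 was the highest. The log2 FC was 4.86 (SE 0.56, adjusted p = 0.000373 in edgeR's quasi-likelihood test), with means of 5.28 ± 2.56 and 151.1 ± 89.99 CPM (SD, n = 3). In IL22 it was at 5.80, 19.7 and 15.2 CPM in control and at 65.6, 76.5 and 43.1 CPM in salt, which is the same order of groups as for Os06g0662550.

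Os08g0460000, on Chromosome 8, fell in salt. It was at 58.1, 66.1 and 130.9 CPM in OLESA control and at 13.5, 10.03 and 7.22 CPM in OLESA salt, and control replicate 3 was the highest library. The log2 FC was -3.06 (SE 0.41, adjusted p = 0.000845 in edgeR's quasi-likelihood test), with means of 85.0 ± 39.9 and 10.2 ± 3.15 CPM (SD, n = 3). In IL22 its log2 FC was -1.53 (SE 0.39, adjusted p = 0.0382 in the same test). The difference of the responses, OLESA minus IL22, was also -1.53 (SE 0.54). It did not pass the same test as an interaction (adjusted p = 0.109).

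Os09g0553100, on Chromosome 9, was at 36.7, 95.2 and 113.2 CPM in OLESA control and at 9.68, 12.9 and 23.2 CPM in OLESA salt. The lowest control library remained above the highest salt library. The log2 FC was -2.41 (SE 0.45, adjusted p = 0.00428 in edgeR's quasi-likelihood test), with means of 81.7 ± 39.98 and 15.3 ± 7.07 CPM (SD, n = 3). In IL22 it was at 47.4, 21.3 and 21.4 CPM in control and at 21.9, 16.1 and 14.8 CPM in salt, so the IL22 groups overlapped, and its log2 FC of -0.77 did not pass the test (SE 0.43, adjusted p = 0.332). The difference of the responses, OLESA minus IL22, was -1.64 (SE 0.61). It did not pass the same test as an interaction either (adjusted p = 0.122), so a difference between the lines is not shown for this locus. These loci were chosen for their large and stable changes and do not stand for the other DEGs. The treatment of fragments that match several genes is unknown here, so their values are uncertain if near-identical copies exist.

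**Figure D4:**
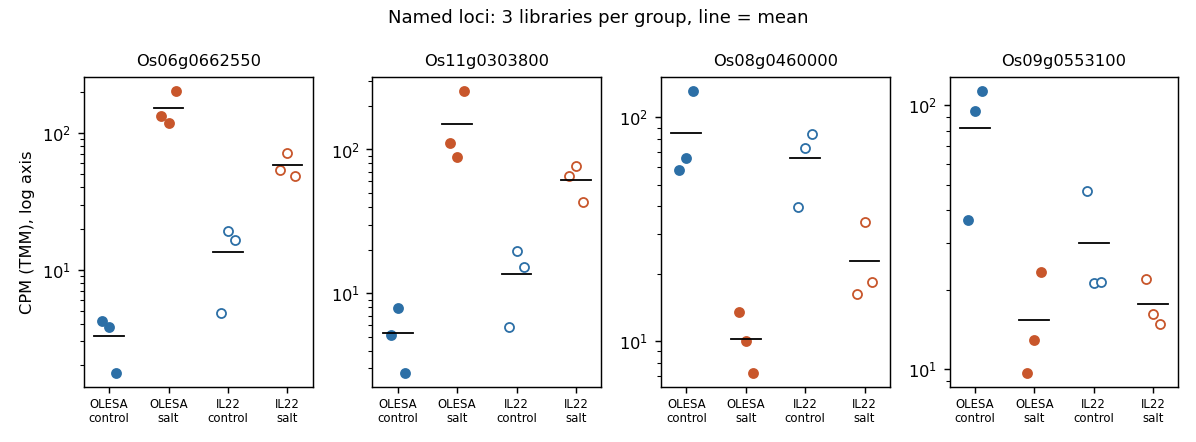
CPM of 4 loci on a logarithmic axis in the 3 libraries of each group (points, OLESA filled and IL22 open, control blue and salt orange) with the group mean (line). In OLESA the salt and control libraries are separated for each locus, for example 119.7 to 203.3 CPM against 1.76 to 4.22 CPM for Os06g0662550.

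The OLESA replicates differed in how far they stood from the other condition. Genes were called without 1 library, and their change was then read in the library left out, against the mean of the 3 libraries of the other condition, which did take part in the choice. Genes called up-regulated without salt replicate 1 had a median difference of 1.06 on the log2 CPM scale in that library and 1.38 in the other salt replicates. These values were 1.26 and 1.42 for salt replicate 2 and 0.99 and 1.27 for salt replicate 3. Among up-regulated genes, 97.1 to 99.8% kept their direction in the library left out, and among down-regulated genes 97.6 to 99.8% did. The smallest response was that measured from control replicate 1, with a median of 0.86 for up-regulated and -0.71 for down-regulated genes, against 1.20 and -1.16 from the other control replicates. Control replicate 1 was the lowest control library in 68.1% of all down-regulated DEGs and the highest in 51.9% of the up-regulated ones, and control replicate 3 was the highest control library in 62.1% of the down-regulated DEGs. In total, 1570 DEGs, 858 up-regulated and 712 down-regulated, were called in each of the 6 fits without 1 OLESA library. This share rose with the size of the change, from 18.9% of up-regulated DEGs with a log2 FC of 0.5 to 1 to 68.1% of those beyond 3, and from 23.2% to 68.0% of the down-regulated ones.

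The genes with the largest rise in OLESA had a high median change in IL22 too, whereas those with a log2 FC of 0.5 to 2 had medians near 0 there. In IL22 itself, 5.17% of tested features were DEGs. The comparisons share no library, although the filter, the scaling and the spread came from all 12. The size classes were cut by the OLESA log2 FC, which favours larger medians in OLESA than in IL22. The 210 genes up-regulated beyond a log2 FC of 3 in OLESA had a median log2 FC of 4.05 in OLESA and 2.94 in IL22, 186 of them (88.6%) had a positive log2 FC in IL22, and 101 of them (48.1%) were up-regulated DEGs of IL22, against 2.92% of all tested features. By contrast, the 1022 genes with a log2 FC of 1 to 2 had medians of 1.36 in OLESA and 0.03 in IL22, and 521 of them (51.0%) had a positive log2 FC in IL22. For down-regulated genes, the IL22 medians of the size classes ran from -0.14 to -1.33. The 50 genes below -3 in OLESA had medians of -3.76 in OLESA and -1.33 in IL22, and 44 (88.0%) had a negative log2 FC in IL22, with 8 down-regulated DEGs of IL22 among them, against 2.25% of all tested features. The 856 genes between -1 and -2 had medians of -1.31 and -0.35, and 673 (78.6%) had a negative log2 FC in IL22. IL22 control replicates differed. Relative to the OLESA control mean, the down-regulated DEGs had medians of -0.10, -0.54 and -0.55 in IL22 control replicates 1, 2 and 3. In the IL22 salt libraries these were -0.64 to -0.55. Without IL22 control replicate 1 the IL22 median log2 FC was 2.94 for the up-regulated genes beyond 3 and -1.20 for the down-regulated genes beyond 3. It was then 0.01 over all 2433 up-regulated and -0.05 over all 2054 down-regulated DEGs, compared with 0.14 and -0.26 when all libraries were used. Without IL22 control replicate 2 or 3 it was 0.22 or 0.23 and -0.33 or -0.34, respectively. Which IL22 control is typical of the line was not tested. The share of genes with the same sign over all tested features was 54%.

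**Figure D5:**
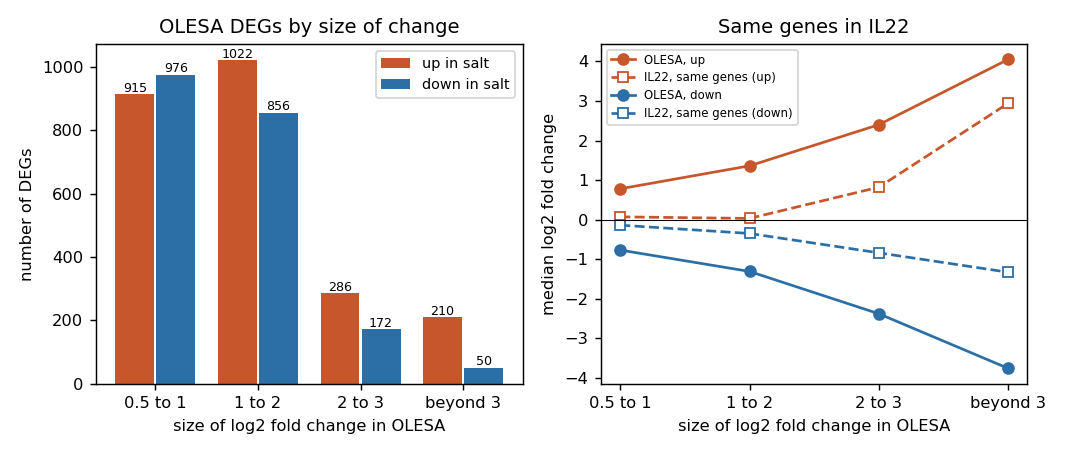
Left, number of OLESA DEGs by size of log2 fold change (orange up-regulated, blue down-regulated), from 915 and 976 at 0.5 to 1 to 210 and 50 beyond 3. Right, median log2 fold change of the same genes in OLESA (filled) and IL22 (open), where up-regulated genes of class 1 to 2 have medians of 1.36 and 0.03 and those beyond 3 have 4.05 and 2.94. The classes were cut by the OLESA values, which favours larger medians in OLESA.

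Whether the response differed between OLESA and IL22 was asked with an interaction term. At an adjusted p of 0.05 in edgeR's quasi-likelihood test, it passed in 773 of the 4487 OLESA DEGs, against 4.99% of all tested features. These 773 comprised 566 genes up-regulated and 207 genes down-regulated in OLESA. The larger change was in OLESA in 564 and 206 of them, a direction that the choice of OLESA DEGs favours. By size, it passed in 122 of the 915 up-regulated genes at 0.5 to 1 and in 328 of the 1022 at 1 to 2. It passed in 85 of the 286 at 2 to 3 and in 31 of the 210 beyond 3. Among down-regulated genes it passed in 91 of 976, 98 of 856, 12 of 172 and 6 of 50, in the same order. In the quintile with the lowest expression, the median SE was 0.60 and the median absolute log2 FC of DEGs was 2.37. In the highest, these were 0.19 and 0.91. The classes can thus differ in precision, and whether they differ in the interaction was not tested. The number of OLESA DEGs that passed rested on single libraries. The number rose to 2291 without IL22 control replicate 1. It dropped to 13 or 24 when IL22 control replicate 2 or 3 was left out, and to 14, 20 or 22 when IL22 salt replicate 1, 2 or 3 was. Among OLESA libraries, it was 19 or 23 when control replicate 2 or 3 was left out and 38 or 44 when salt replicate 1 or 2 was. It was 620 without OLESA control replicate 1 and 884 without OLESA salt replicate 3. A gene that did not pass is not shown to respond alike in both genotypes.

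Salt-responsive genes of OLESA were found on every chromosome in similar proportions. DEGs made up from 19.1% of the tested loci on Chromosome 6 to 23.2% on Chromosome 1, compared with 21.6% of all tested features. Chromosome 1 held 391 up-regulated and 309 down-regulated DEGs, and Chromosome 12 held 113 and 108. The 700 DEGs on Chromosome 1 became 323 or 368 when OLESA control replicate 2 or 3 was left out and 447 when OLESA salt replicate 2 was. Up-regulated DEGs were the more numerous on each chromosome, with 174 against 172 on Chromosome 7. With upper-quartile factors the majority over all chromosomes was down-regulated, as given above.

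Where IDs were close, loci next to an up-regulated locus were up-regulated more often than tested loci as a whole. Tested loci were sorted by ID, and 20667 pairs of consecutive loci were formed. Both loci were DEGs in 1047 pairs, with the same direction in 613 (58.5%) and opposite directions in 434. The next locus was also up-regulated for 14.4% of up-regulated loci, against 11.8% of all tested loci, and also down-regulated for 12.8% of down-regulated loci, against 9.91%. In the 1110 pairs whose ID numbers differed by less than 100, the share for up-regulated loci was 24.8%, and 48 of 59 pairs of DEGs had the same direction. In the 2763 pairs whose numbers differed by more than 500, it was 11.4%, and 68 of 134 pairs had the same direction. The shares for down-regulated loci did not follow this order, with 14.3% for numbers that differed by less than 100, 11.4% at 100, 14.5% above 100 and up to 500, and 11.8% above 500. The backgrounds of 11.8% and 9.91% are over all tested loci and need not hold for close pairs. Every pair of IDs closer than 100 holds an ID that does not end in 00. Of 1262 such tested loci, 171 were up-regulated and 76 down-regulated. Therefore, these shares do not tell whether the directions differ at close IDs. Across pairs, the log2 FC of both members had a Pearson's r of 0.15 and a Spearman's rho of 0.11 for close IDs and an r of 0.03 and a rho of 0.03 for distant IDs, with values from the same 6 libraries. Whether close IDs overlap or share fragments was not tested.

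Most runs of neighbouring DEGs with the same direction were short. Up-regulated DEGs formed 246 runs of 2, 40 runs of 3 and 6 longer ones, and down-regulated DEGs formed 187, 30 and 5. The longest were a pair of runs of 6 up-regulated loci. One lay on Chromosome 4, with log2 FC from 0.98 to 5.74 in OLESA and from -0.91 to 3.23 in IL22, and 2 of its 6 loci passed the interaction test. The other lay on Chromosome 10, with log2 FC from 0.89 to 3.55 in OLESA and from -2.04 to 0.72 in IL22, and all 6 of its loci passed that test. The interaction passed in 4.99% of all tested features and in 566 of the 2433 up-regulated DEGs, and the number of OLESA DEGs that passed it fell from 773 to between 13 and 44 in 9 of the 12 fits without 1 library. In each of these runs 3 of the 6 loci were called in every fit without 1 OLESA library. The longest down-regulated run had 5 loci on Chromosome 9, with log2 FC from -2.06 to -0.78. The number of neighbouring pairs with the same direction was 172 or 216 when OLESA control replicate 2 or 3 was left out, 327 or 288 when OLESA salt replicate 1 or 2 was, and 979 when IL22 control replicate 1 was.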

How the data were processed

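The deposited values are raw counts of fragments for each feature and library, which the authors had not normalized. Per the study's methods and the submitters' processing notes, stranded paired-end libraries were processed with bcl2fastq 2.20, cutadapt 1.11 and BBDuk, aligned to IRGSP-1.0 with STAR 2.5.2b and counted with featureCounts 1.5.1. How strand was set in the counting is unknown here, so antisense partners may share fragments. The authors' HTSFilter, FPKM and edgeR steps follow these counts.

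The analysis used edgeR 4.0.16 under R 4.3.3. Of 36844 features, filterByExpr (minimum count 10, minimum total 15) kept 20760. The 16084 others held 0.0875% of the OLESA counts. TMM factors and the quasi-likelihood fit were computed from the 12 libraries of the 4 groups, with Benjamini-Hochberg adjustment over all tested features. SEs were derived from the F statistic. Log2 CPM used a prior count of 2. The steps were also run on simulated counts with balanced changes in few features. Such counts do not test the scaling where many features change, as they do here. The FPKM criterion of the study was not applied because gene lengths do not pair with the IDs.

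Gene lists by function and Gene Ontology were not used, because the reference (ASM3414082v1) shared only 1 of the 36844 IDs. The members, groups of genes and tests were chosen with earlier results of these data known. By rule, the named loci were the 2 highest and 2 lowest log2 FC among DEGs that had 5 or more as mean log2 CPM, 10 or more counts in every OLESA library, no overlap of groups, and a call kept without each OLESA library and with DESeq2 1.42.0. Replicates were separate pools of plants, whose spread is what the p-values reflect. Per the study's methods, plants shared tanks and salt was added to the nutrient solution. Which tank each pool came from is not stated. Pools from 1 tank would not be independent replicates of the treatment, and effects of salt and of tank cannot be told apart. No batch is named for the libraries. Alternatives were other scalings, filters, tests, the OLESA libraries alone, a replicate block and leaving out each library.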

Additional observations from a re-analysis of the deposited data

Results flagged for a closer look

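The response of Os06g0662550 to salt was larger in OLESA than in IL22 by 3.44 on the log2 scale (SE 0.62, adjusted p = 0.0278 for the interaction in edgeR's quasi-likelihood test), and that of Os11g0303800 was larger by 2.66 (SE 0.69, adjusted p = 0.0471 in the same test). All 3 OLESA salt libraries were above all 3 IL22 salt libraries for both loci, and IL22 control replicates 2 and 3 were above all OLESA control libraries. Both loci were chosen for their high log2 FC in OLESA, and the interaction uses the same OLESA values, so the choice favours a larger response in OLESA. These calls depend on the fit. The adjusted p for Os06g0662550 ran from 1.04e-05 with DESeq2 to 0.0905 without IL22 salt replicate 1, and it was 0.0678 with the replicate number as a block. For Os11g0303800 it ran from 0.00308 with DESeq2 to 0.131 without IL22 control replicate 2.

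Among the DEGs of OLESA, 773 had a response that differed from that in IL22. This number changed by more than 1.5 times in most fits without 1 library, as given above. Relative to the mean of OLESA control, the 2433 genes up-regulated in OLESA had a median log2 difference of 0.03 in IL22 control replicate 1, 0.54 in replicate 2 and 0.57 in replicate 3, and of 0.51 to 0.62 in the IL22 salt libraries. The part of these levels in the interaction was not tested.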

How the results depend on the processing

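The 4 named loci kept their direction and passed the test in all 23 alternatives each, of which DESeq2 and the 6 fits without 1 OLESA library were part of the rule that chose them and say nothing of stability. Their log2 FC ran from 5.23 to 5.80 (Os06g0662550), from 4.24 to 5.26 (Os11g0303800), from -3.31 to -2.62 (Os08g0460000) and from -2.87 to -2.13 (Os09g0553100). DEGs numbered 4174 to 5554 under the other scalings, filters, DESeq2, the likelihood ratio and exact tests and a fit of the OLESA libraries alone. They numbered 1304 (802 up, 502 down) when edgeR's glmTreat tested against a log2 FC of 0.5, 2596 (1518 and 1078) beyond a log2 FC of 1, and 6825 (3622 and 3203) at an unadjusted p of 0.05. Without 1 library, DEGs numbered 1936 to 5841, with 973 to 3147 up and 963 to 2694 down. The highest of these values came without IL22 control replicate 1, where 21213 features were tested.

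OLESA DEGs that passed the interaction numbered 1540 with DESeq2, 1397 with the likelihood ratio test, 16 with glmTreat and 13 to 2291 without 1 library. Down-regulated genes among the 100 most abundant features numbered 13 with glmTreat, 16 beyond a log2 FC of 1 and 23 to 44 without 1 library. The genes that held 50% of the fall of each setting's own DEGs numbered 6, 9 and 11 to 27 in the same settings. The neighbouring pairs with the same direction numbered 95, 263 and 172 to 979. The DEGs on Chromosome 1 numbered 217, 414 and 323 to 877, compared with 700 in the main analysis.

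Whether the replicate numbers pair the samples was not settled by correlations. Deviations from the group means correlated at r = 0.124, -0.046 and 0.200 between control and salt replicates 1, 2 and 3. Control replicates 1 and 3 correlated best with the salt replicate of the same number, and control replicate 2 with salt replicate 1 (r = 0.038). With the replicate number as a block, 3437 DEGs were called over 12 libraries, compared with 4487 without it. Over the 6 OLESA libraries, 4441 were called with the block and 4174 without it. With the block, 17 OLESA DEGs passed the interaction over 12 libraries. In the block fit of the 6 libraries, 23 of the 100 most abundant features were down-regulated. Alternatives for gene lists were not run, as the lists were not used. The causes of these differences were not tested.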

Other observations

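Features were also grouped by the form of their ID. Of 29280 locus IDs ending in 00, 19417 were tested (66.3%), and 21.8% of these were DEGs, close to the 21.6% of all tested features. Of 6387 locus IDs with another ending, 1262 were tested (19.8%), and 19.6% of these were DEGs, 171 up-regulated and 76 down-regulated. IDs with another ending held 1.24 to 1.88% of the counts in OLESA libraries. Features without a locus ID numbered 1177, and 81 of them were tested, with 3 up-regulated and 5 down-regulated, against 11.7% and 9.89% of all tested features.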
